A study of Zea mays with 9 samples.

Results

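The 81 transcripts described here were higher in maize roots supplied with either of 2 organic N sources than in roots supplied with inorganic N. They were chosen by their measured levels among 39372 transcripts on the array, so that their differences from inorganic N are a description and were not tested. The treatments were a mixture of free amino acids (Aa), a protein hydrolysate (Bio, SICIT2000) whose amino acid content that mixture imitates, and inorganic N as NH4H2PO4 (N). Seedlings of the hybrid P0423 were treated from an age of 4 days for 3 days, with total N held at 11.3 mg per litre in each solution, and each treatment had 3 replicates of the pooled roots of 24 seedlings, each on 1 one-colour array. All seedlings stood in the same diluted nutrient solution, which itself held some NH4H2PO4. The N treatment also supplied more ammonium and phosphate than the organic ones, and an effect of these cannot be told apart from one of the organic compounds.

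Roots take up amino acids and short peptides through transporters of the plasma membrane, many of which use the proton gradient set up by proton-pumping ATPases. Outside and inside the cell, proteases and peptidases release amino acids from proteins. Root branching responds to the form and amount of N, and the growing tip is covered by the root cap, a tissue that sheds cells and secretes mucilage.

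Levels are log2 signals after subtraction of the log2 75th percentile of the same array, so that a difference of 1 is a 2-fold change and a level of 0 is that percentile itself. A transcript was taken if each Aa array and each Bio array lay above each N array, if the mean difference from N was at least 1 for both sources, and if the scanner software judged it well above background on all 6 Aa and Bio arrays. It was not taken if every Bio array lay above every Aa array by a mean of 1 or more, which applied to 0 of those left. Of 26565 transcripts well above background on these 6 arrays, the condition was met by 450 (1.69%) for Aa against N, by 283 (1.07%) for Bio against N and by 84 (0.316%) for both. Left out by identifier were 3 of the 84, namely ys1 (GRMZM2G156599_T01) and naat1 (GRMZM2G096958_T01), both genes of iron uptake through phytosiderophores, and GRMZM2G046669_T01, which the paper lists as a gibberellin 3-beta-dioxygenase. Both comparisons use the same N arrays, so a low N array counts in each of them.

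Between 27019 and 32309 transcripts were well above background per array, 5.68% of spots were marked as outliers by the scanner software, and arrays correlated at 0.959 to 0.986 across transcripts. In the limma fit over all transcripts, with marked spots left out, the limit of 0.01 for the Benjamini-Hochberg adjusted p together with a 2-fold change was passed by 0 transcripts (0.0%) when Aa was set against N, by 0 (0.0%) when Bio was, and by 0 (0.0%) between Bio and Aa. The smallest adjusted p of limma in these comparisons was 0.175, 0.461 and 0.790. Without adjustment, limma gave a p below 0.05 for 7.35% of transcripts between Aa and N. The share was 7.05% between Bio and N and 4.91% between Bio and Aa. A test modelled on that of the paper also called 0 after adjustment. It did not use the permutation p-values and Bonferroni correction named in the paper, so the paper's own test was not repeated. The paper reports differing transcripts in each of these comparisons. Of the 5 root markers, 4 were well above background on all 6 Aa and Bio arrays. Among these was rth3, a gene of root hair growth, which was so on all 9 arrays. Its mean level was 1.94 in Aa, 1.68 in Bio and 2.02 in N. Of 21 zein transcripts, the storage proteins of the seed, 2 were well above background on all 6 Aa and Bio arrays. Of 19 shoot or leaf transcripts, 7 were.

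Over the 81 transcripts the median of the mean difference was 1.60 in Aa vs. N (range 1.01 to 5.30) and 1.46 in Bio vs. N (range 1.01 to 4.24), against medians of -0.0031 and 0.012 over all 26565. A mean difference of at least 2 was reached by 22 transcripts in Aa vs. N and by 9 in Bio vs. N. The distance from the lowest of the 6 organic arrays to the highest N array was small for most, with a median of 0.25, and it reached 1 for only 2 transcripts. On these values most of the set stands just clear of the N arrays, and a few transcripts stand far from them.

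**Figure D1:**
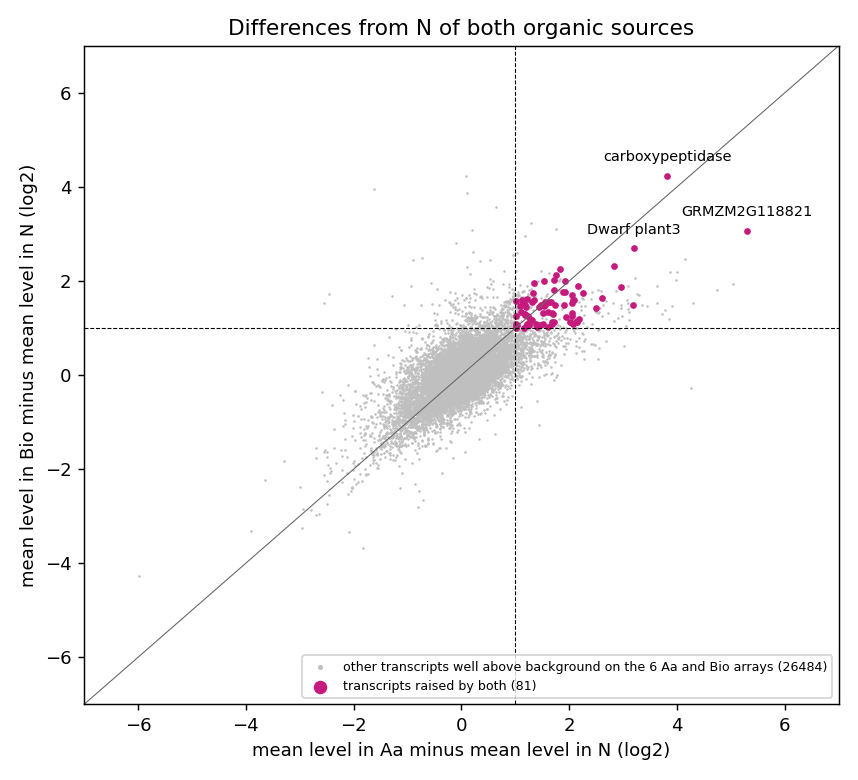
Each point is a transcript, with its mean level in Aa minus that in N on the horizontal axis and its mean level in Bio minus that in N on the vertical axis (log2, 3 arrays per treatment). Grey points are the other transcripts well above background on the 6 Aa and Bio arrays, the 81 are in magenta beyond both dashed lines at 1, and the solid line marks equal differences. Both axes subtract the same N means.

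The carboxypeptidase transcript GRMZM2G373607_T01, annotated as an enzyme that removes amino acids from the end of a protein chain, differed most by the smaller of its 2 differences. Its level was -2.76, -5.05 and -5.87 on the Aa arrays, -3.24, -3.36 and -5.82 on the Bio arrays and -8.89, -8.04 and -8.22 on the N arrays. All organic arrays lay more than 2 above all N arrays, although replicate 3 was the lowest in Aa and in Bio. It was well above background on no N array, so that its signal was at least 3.61-fold higher in Aa and at least 4.83-fold higher in Bio than in N, where each N array counts with its lowest signal well above background or the signal of the probe, whichever is higher.

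GRMZM2G118821_T01, which has no annotation beyond the RefSeq symbol LOC100285748, had the largest mean difference in Aa vs. N. It lay at 1.70, 2.75 and 3.56 on the Aa arrays, at -0.25, -0.89 and 2.47 on the Bio arrays and at -3.29, -2.65 and -1.95 on the N arrays, a mean difference of 5.30 in Aa and 3.07 in Bio. The Bio arrays were split, with replicate 3 within the range of Aa and the other 2 below it, and the Bio difference was 2.06 without Bio replicate 3. One spot in Aa and 1 in Bio were marked.

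A transcript annotated as Dwarf plant3, GRMZM2G089803_T01, came next. The d3 gene of maize encodes a cytochrome P450 of gibberellin synthesis, and the RefSeq symbol of this transcript is LOC103639316. The transcript to which RefSeq gives the symbol d3 is another, GRMZM2G093195_T01, which was well above background on all 9 arrays, differed by -0.066 in Aa vs. N and 0.83 in Bio vs. N and did not meet the condition. The levels of GRMZM2G089803_T01 were -1.05, -2.38 and -2.73 in Aa, -2.39, -3.54 and -1.75 in Bio and -4.89, -7.11 and -3.78 in N. The N arrays spanned more than the gap between treatments, and without N replicate 2, on which the probe was not well above background, the differences were 2.28 in Aa and 1.78 in Bio in place of 3.21 and 2.70.

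Of the 10 transcripts with the largest smaller difference, the remaining 7 had mean differences of 1.84 to 2.96 in Aa and 1.76 to 2.32 in Bio. They were GRMZM2G007969_T01, GRMZM5G891967_T01, GRMZM2G043027_T01 and GRMZM2G067713_T01 (all uncharacterized), GRMZM5G827810_T01 (signal peptidase I), GRMZM2G097340_T01 (transposon protein) and GRMZM2G094418_T01, of the eukaryotic translation initiation factor 2B family, which in eukaryotes recycles a factor needed to begin translation. For GRMZM2G067713_T01 the N arrays lay at -5.60, -7.89 and -4.72 against -3.82, -4.22 and -4.37 in Aa and -4.37, -4.23 and -4.32 in Bio. Its organic arrays agreed closely while its N arrays did not, and without N replicate 2 the differences were 1.02 in Aa and 0.85 in Bio.

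**Figure D2:**
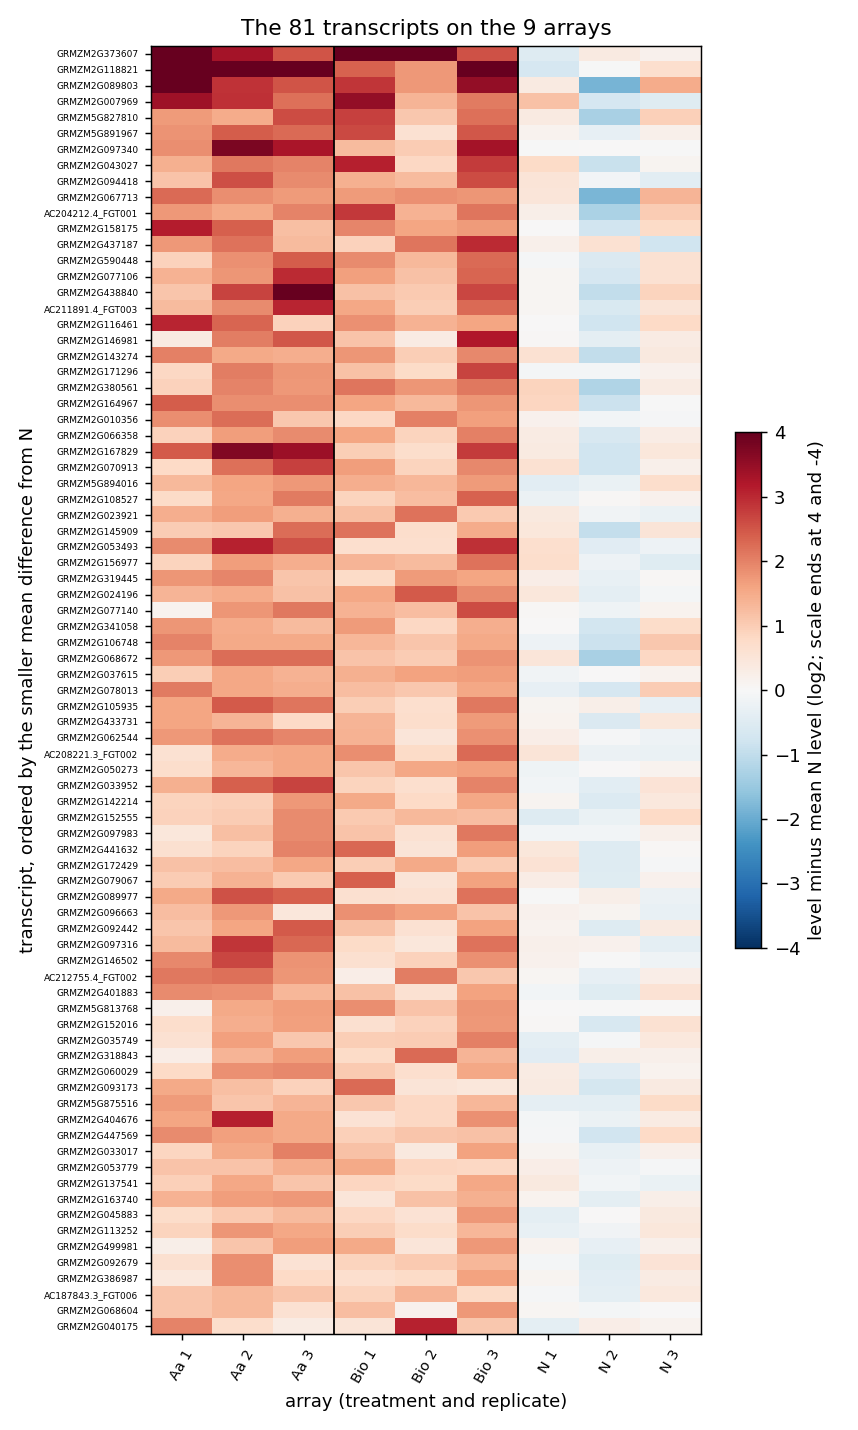
Rows are the 81 transcripts, ordered by the smaller of the mean differences from N, and columns are the 3 Aa, 3 Bio and 3 N arrays. Colour is the level minus the mean N level of that transcript (log2). Red fills all 6 organic columns, which the choice of transcripts fixes, and N replicate 2 holds the bluest cells.

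An annotation was found for 64 of the 81 in the study's supplementary tables, of which 28 were described as uncharacterized protein, which leaves 36 with a described product. These tables list only transcripts that the study called different in a comparison. Group members found by annotation alone were therefore preselected, and unchanged transcripts could not be listed that way. RefSeq gene names (Zm-B73-REFERENCE-NAM-5.0) were matched for 32. By these descriptions and symbols, 27 fell into lists of gene groups. The largest of these was transcription factors with 9 transcripts, followed by hormone genes, proteolysis and root cap proteins with 3 each, and single transcripts in 9 further lists. No transcript of nitrogen assimilation, nitrate transport or phosphate starvation was among them.

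The 45 transcripts with no described product and the 36 with one had median differences from N that were close to each other. The 45 had a median difference of 1.56 in Aa (range 1.01 to 5.30) and 1.44 in Bio (range 1.01 to 3.07), and the 36 one of 1.65 in Aa (range 1.01 to 3.82) and 1.47 in Bio (range 1.04 to 4.24). Both differences were 2 or more for 2 transcripts of each kind, the carboxypeptidase and Dwarf plant3 among the described ones and GRMZM2G118821_T01 and GRMZM2G007969_T01 among the others. GRMZM2G007969_T01 lay at -0.87, -1.35 and -2.08 in Aa, -0.75, -2.91 and -2.18 in Bio and -3.11, -4.94 and -4.76 in N. Bio replicate 2 was close to the highest N array, and the other organic arrays were well clear of it. Of described products outside the lists, chosen for mention after their values were seen, a putative receptor kinase (GRMZM2G172429_T01) differed by 1.31 in Aa and 1.17 in Bio, a calmodulin-binding protein (GRMZM2G318843_T01) by 1.097 and 1.46, and a ribosomal protein-like transcript (GRMZM2G146981_T01) by 1.63 and 1.56. The last of these rested on Bio replicate 3, without which its Bio difference was 0.74.

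Besides the carboxypeptidase, the proteolysis list held 2 signal peptidase I transcripts, enzymes that cut the signal peptide off secreted proteins. These 3 were listed by the study's annotation, and of 4 other proteolysis transcripts listed by RefSeq symbol, 0 met the condition in either comparison (medians of 0.15 in Aa vs. N and 0.058 in Bio vs. N). GRMZM2G142214_T01 lay at -3.52, -3.48 and -2.69 in Aa, -2.90, -3.63 and -2.86 in Bio and -4.30, -4.95 and -4.003 in N, with mean differences of 1.19 and 1.29. GRMZM5G827810_T01 lay at -5.04, -5.23 and -4.12 in Aa, -3.98, -5.66 and -4.51 in Bio and -6.38, -8.03 and -5.77 in N, and was well above background on 2 N arrays. In both, the lowest N array was replicate 2, and without it the differences in Aa and Bio were 0.92 and 1.02 for the first and 1.28 and 1.36 for the second. AC208221.3_FGT002, a Bowman-Birk trypsin inhibitor, a class of small proteins that block serine proteases, differed by 1.22 in Aa and 1.63 in Bio and was chosen for mention after its values were seen.

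Membrane transport was represented by 3 transcripts. The metal-nicotianamine transporter YSL13 (GRMZM2G024196_T01), of a family that carries iron and other metals bound to nicotianamine, lay at 0.46, 0.58 and 0.29 in Aa, 0.66, 1.55 and 0.99 in Bio and -0.43, -1.28 and -0.98 in N. Its difference was 1.34 in Aa and 1.96 in Bio, and it had the highest mean Bio minus Aa of the 81 (0.62), with every Bio array above every Aa array. Without N replicate 2 its differences were 1.15 and 1.77. Among 8 other metal-nicotianamine and phytosiderophore transcripts with a RefSeq symbol and well above background on the organic arrays, 5 lay above N by the same condition in Aa and 2 in Bio, and these 2 are ys1 and naat1.

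Oligopeptide transporter 1 (GRMZM2G152555_T01), of a family that moves short peptides across the plasma membrane, lay at -2.74, -2.65 and -1.78 in Aa, -2.63, -2.36 and -2.43 in Bio and -4.18, -3.93 and -2.87 in N. The differences were 1.27 and 1.19, and N replicate 3 came within 0.13 of the lowest Aa array. For peptide transporters of the PTR family, the paper reports that Aa and Bio mostly lowered the transcripts. It also lists another oligopeptide transporter as lowered in Aa vs. N. Levels of these other peptide transporters were not read here, so GRMZM2G152555_T01 does not stand for peptide transport as a whole. A plasma membrane ATPase, GRMZM2G341058_T01, a proton pump that energises uptake, lay at -1.93, -2.23 and -2.44 in Aa, -2.01, -2.89 and -2.25 in Bio and -3.69, -4.46 and -2.98 in N. Its differences of 1.51 and 1.32 became 1.13 and 0.95 without N replicate 2. The proton pumps mha2 and mha4, measured by other probes, differed by 0.41 and 0.37 in Aa vs. N and by 0.25 and -0.0076 in Bio vs. N.

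**Figure D3:**
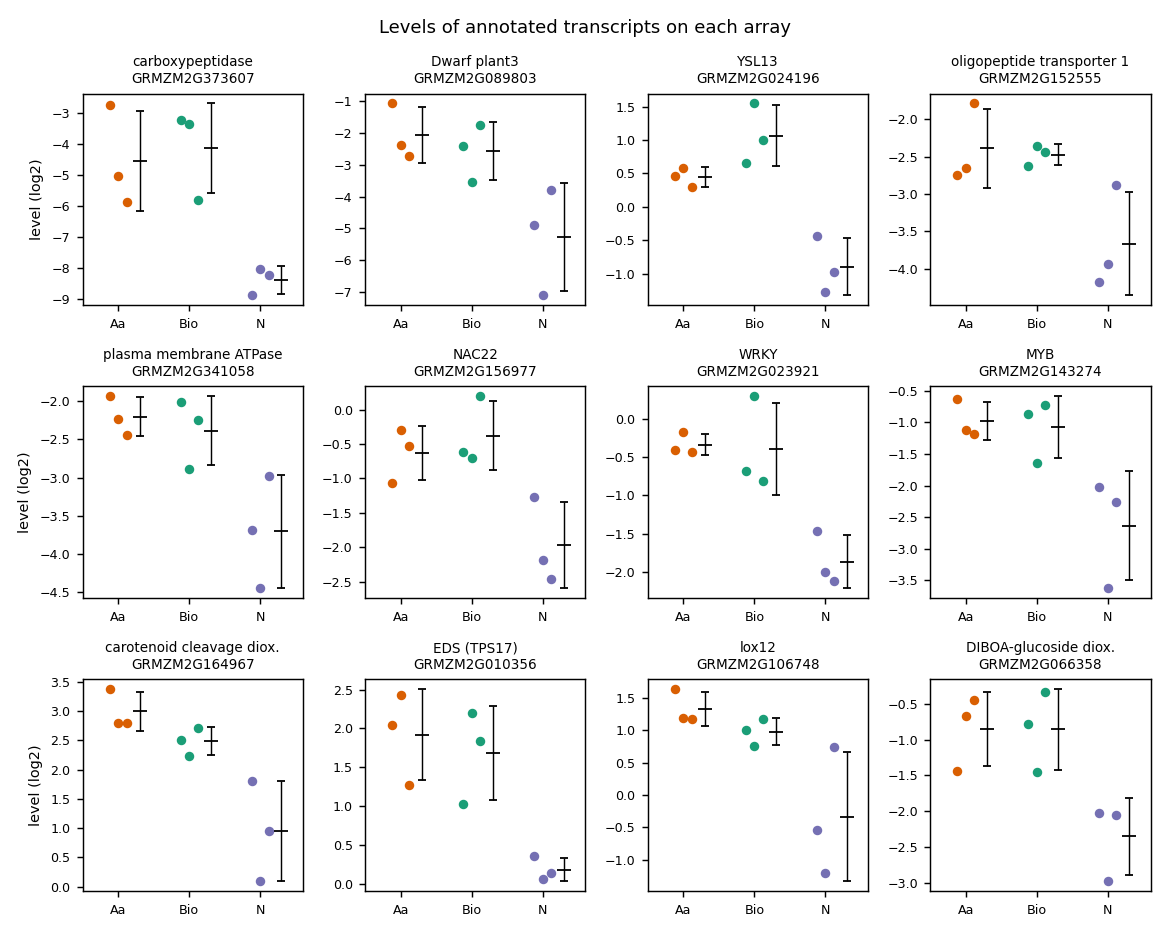
Levels (log2, relative to the 75th percentile of the array) of 12 annotated transcripts among the 81, each in its own panel with its own vertical scale. Coloured points are the 3 arrays of Aa, Bio and N in replicate order from left to right, and the bar beside them is the mean with its SD (n = 3).

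The 9 transcription factors were 4 bHLH, 1 NAC, 1 MYB, 1 WRKY, 1 zinc finger and 1 homeobox transcript. NAC22 (GRMZM2G156977_T01), annotated as NAC domain-containing protein 21/22, whose Arabidopsis counterpart NAC1 acts in auxin signalling during lateral root formation, lay at -1.07, -0.29 and -0.52 in Aa, -0.62, -0.71 and 0.20 in Bio and -1.27, -2.18 and -2.46 in N. Replicate 1 of N was near the lowest Aa array, so that within replicate 1 the differences were 0.20 in Aa and 0.65 in Bio, whereas within the other replicates they were 1.48 or more. The WRKY transcript GRMZM2G023921_T01, of a family active in defence and senescence, lay at -0.41, -0.18 and -0.43 in Aa, -0.68, 0.30 and -0.81 in Bio and -1.47, -2.002 and -2.12 in N. It was among the transcripts with a wide gap to N (0.66), and its differences of 1.53 and 1.47 became 1.46 and 1.40 without N replicate 2.

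The MYB transcript GRMZM2G143274_T01 lay at -0.63, -1.11 and -1.18 in Aa, -0.87, -1.64 and -0.72 in Bio and -2.02, -3.63 and -2.26 in N, and its differences of 1.66 and 1.56 became 1.16 and 1.06 without N replicate 2. Of the bHLH transcripts, GRMZM2G145909_T01 differed by 1.44 and 1.45, GRMZM2G137541_T01 by 1.20 and 1.05, bHLH161 (GRMZM2G045883_T01) by 1.03 and 1.06, and bHLH115 (GRMZM2G068604_T01) by 1.01 and 1.04 in Aa and Bio. The last 3 were near the limit of 1 and had a Bio difference of 0.70 to 0.81 without Bio replicate 3. Zinc finger protein 7 (GRMZM2G079067_T01) differed by 1.14 and 1.503, and the homeobox-leucine zipper ATHB-4 (GRMZM2G068672_T01), in Arabidopsis a regulator of the shade response, by 2.06 and 1.31. For ATHB-4 these values became 1.41 and 0.66 without N replicate 2.

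Most other members of these families did not stand above N. Among 33 bHLH transcripts with a RefSeq symbol and well above background on the organic arrays, the condition was met by 3 in Aa, 3 in Bio and 2 in both, with medians of 0.049 in Aa vs. N and 0.079 in Bio vs. N. Among 22 NAC transcripts, 2, 1 and 1 met it. For all 174 transcription factor transcripts so named, 3 met it in both (1.72%, against 0.316% of all transcripts), while 17 WRKY and 39 MYB transcripts had 0 in both. Some lay below N by 1 or more without overlap. These were 3 WRKY transcripts in Aa and 1 in Bio, and 2 MYB and 1 bHLH transcripts in Aa and 0 in Bio. Of the NAC transcripts, 0 did so. The share over all transcripts was not computed.

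Among hormone genes, besides Dwarf plant3, a receptor kinase annotated as CLAVATA1-like (GRMZM2G438840_T01), a class that perceives CLE peptides in meristems, lay at -1.86, -0.27 and 1.08 in Aa, -1.79, -1.91 and -0.31 in Bio and -2.89, -3.95 and -2.07 in N. Its Aa arrays were spread over almost 3, and replicate 1 of Aa lay with 2 Bio arrays just above the N array of replicate 3. A WAT1-related transcript, GRMZM2G093173_T01, of a family with an auxin transporter of the vacuole in Arabidopsis, differed by 1.21 in Aa and 1.08 in Bio, and by 0.86 and 0.73 without N replicate 2. Its Bio arrays lay at 0.78, -0.97 and -1.02, so that the Bio difference was 0.49 without Bio replicate 1 and 0.12 within replicate 3. Of 29 gibberellin, auxin and cytokinin transcripts named by symbol, 0 met the condition in either comparison. The gibberellin 3-beta-dioxygenase GRMZM2G046669_T01, which met it in both and was left out by identifier, is not in that list. GRMZM2G078013_T01, an NBS-LRR disease resistance protein, differed by 1.69 and 1.29, and by 1.35 and 0.95 without N replicate 2.

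Enzymes of specialised metabolism were represented by 4 transcripts from 4 pathways. A carotenoid cleavage dioxygenase (GRMZM2G164967_T01), of a family that makes apocarotenoids, lay at 3.38, 2.80 and 2.80 in Aa, 2.51, 2.23 and 2.71 in Bio and 1.81, 0.09 and 0.94 in N. Each Aa array lay above each Bio array, and the differences from N were 2.05 and 1.53, or 1.62 and 1.11 without N replicate 2. CCD1, CCD7 and CCD8 were also measured, and 0 of the 3 met the condition in either comparison.

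The terpene synthase GRMZM2G010356_T01, with the RefSeq names EDS and TPS17, lay at 2.05, 2.43 and 1.28 in Aa, 1.02, 2.20 and 1.83 in Bio and 0.36, 0.07 and 0.14 in N. The N arrays were close together (SD 0.15, n = 3) and stood 0.67 below the lowest Bio array, and 2 Bio spots were marked. Of 9 terpene synthases well above background on the organic arrays, 1 met the condition in Aa, 2 in Bio and 1 in both. The lipoxygenase lox12 (GRMZM2G106748_T01), which forms oxylipins, lay at 1.64, 1.19 and 1.18 in Aa, 1.001, 0.76 and 1.18 in Bio and -0.55, -1.21 and 0.75 in N. Replicate 3 of N was level with the lowest Bio array to within 0.016, within replicate 3 the differences were 0.44 and 0.43, and all 3 Aa spots were marked. Of 10 lipoxygenases, 1 met the condition in Aa, 3 in Bio and 1 in both.

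The transcript for 2,4-dihydroxy-1,4-benzoxazin-3-one-glucoside dioxygenase (GRMZM2G066358_T01), an enzyme that modifies the benzoxazinoid glucosides of grass defence, lay at -1.43, -0.67 and -0.45 in Aa, -0.79, -1.45 and -0.33 in Bio and -2.02, -2.98 and -2.06 in N. The differences were 1.505 and 1.498, and without N replicate 2 they were 1.19 and 1.18. The 6 bx transcripts of the same pathway that were well above background had medians of -1.41 in Aa vs. N and -0.36 in Bio vs. N, and 3 of them lay below N by 1 or more without overlap in Aa. With the normexp background correction their medians were -0.52 and, with the sign turned, 0.40 relative to all transcripts, while the other scalings kept both signs. A pectinesterase of the cell wall (GRMZM2G070913_T01), which removes methyl groups from pectin, differed by 1.91 and 1.49, and a peroxidase (GRMZM2G404676_T01) by 2.07 and 1.08. Chosen after their values were seen were a caffeoyl-CoA O-methyltransferase of lignin synthesis (GRMZM2G033952_T01), which differed by 2.17 and 1.19, and a 3-ketoacyl-CoA synthase of fatty acid elongation (GRMZM5G894016_T01), by 1.55 and 1.48. Without Bio replicate 3 the Bio difference was 0.70 for the peroxidase and 0.79 for the methyltransferase GRMZM2G033952_T01. Of 6 peroxidases named by symbol and well above background, 1 met the condition in Aa, 0 in Bio and 0 in both. Of 21 expansin, cellulose synthase and related transcripts named by symbol, 0 met the condition in either comparison. In Aa 3 of them, and in Bio 1, lay below N by 1 or more without overlap.

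The array held 2 transcripts with a RefSeq RCP symbol, of root cap proteins, and both were among the 81. RefSeq names were matched for only 18727 transcripts of the array, so other root cap transcripts may not have been listed. RCP1 (GRMZM2G097316_T01) lay at 3.33, 4.94 and 4.37 in Aa, 2.83, 2.53 and 4.25 in Bio and 2.26, 2.26 and 1.70 in N. RCP2 (GRMZM2G146502_T01) lay at 3.19, 3.92 and 3.07 in Aa, 1.90, 2.17 and 3.10 in Bio and 1.43, 1.26 and 1.08 in N. In both, Bio replicate 3 reached the Aa arrays while Bio replicates 1 and 2 were closer to N than to Aa.

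Another transcript, GRMZM2G062544_T01, annotated as Root cap protein 2, lay at 1.19, 1.61 and 1.40 in Aa, 0.83, -0.07 and 1.27 in Bio and -0.29, -0.61 and -0.76 in N. The mean differences of the 3 were 1.95 to 2.14 in Aa and 1.13 to 1.23 in Bio. Without Bio replicate 3 the Bio differences were 0.61 for RCP1, 0.77 for RCP2 and 0.93 for GRMZM2G062544_T01. As these roots were profiled whole, more root cap cells and more RNA of these genes per cell cannot be told apart. Of the other root markers, ZmCASP1 of the Casparian strip differed by 1.16 in Aa vs. N and 0.82 in Bio vs. N, rth3 by -0.080 and -0.34, and rtcs, a gene of crown root initiation, by -1.74 and -2.32. The summed linear signal of the 5 root markers ranged from 23.6 to 51.2 times the 75th percentile in Aa, 13.6 to 31.1 in Bio and 9.03 to 12.8 in N. RCP1 and RCP2, which were chosen for standing above N, alone summed to 19.2 to 45.8 in Aa, 10.3 to 27.6 in Bio and 5.36 to 7.501 in N, so that the order of the sums follows from the choice. The part of root cap RNA in the other differences was not tested. The summed signal of the 19 shoot or leaf transcripts was 69.1 to 76.5 in Aa, 61.9 to 143 in Bio and 71.2 to 79.5 in N. It lay above that of the root markers in each treatment, but the lists differ in length. The part of shoot RNA in these samples was not tested.

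By correlation of levels over the 9 arrays, the transcripts most like RCP1 among the 81 were the uncharacterized GRMZM2G089977_T01 (r = 0.988) and GRMZM2G105935_T01 (r = 0.983), the transposon protein GRMZM2G097340_T01 (r = 0.983), GRMZM2G053493_T01 without annotation (r = 0.958), RCP2 (r = 0.944) and GRMZM2G062544_T01 (r = 0.931). These correlations describe 9 shared libraries, 6 of which lie above the other 3 by the choice of transcripts. After subtraction of treatment means, r with RCP1 was 0.979 for GRMZM2G105935_T01, 0.966 for GRMZM2G089977_T01 and 0.962 for GRMZM2G097340_T01, but lower for GRMZM2G053493_T01 (0.875), RCP2 (0.830) and GRMZM2G062544_T01 (0.795). All of these were higher in Bio replicate 3 than in the other Bio arrays, and all had a higher mean in Aa than in Bio. Without Bio replicate 3 the Bio differences were 0.63 for GRMZM2G089977_T01, 0.84 for GRMZM2G105935_T01, 1.14 for GRMZM2G097340_T01 and 0.67 for GRMZM2G053493_T01, in place of 1.14, 1.26, 1.87 and 1.42. For GRMZM2G097340_T01 and GRMZM2G053493_T01, 2 Aa spots each were marked, and with marked spots left out neither met the conditions.

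**Figure D4:**
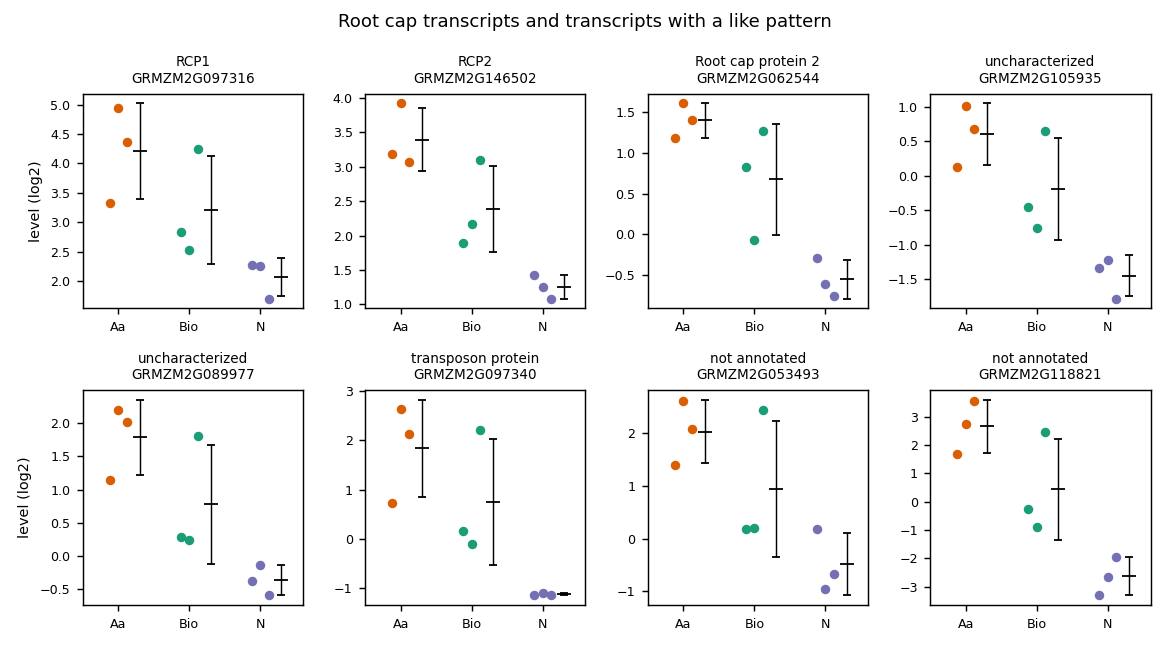
Levels (log2, relative to the 75th percentile of the array) of the 3 root cap transcripts, of 4 transcripts with a like pattern and of GRMZM2G118821_T01, each with its own vertical scale. Points are the 3 arrays of Aa, Bio and N in replicate order from left to right, bars are means with SD (n = 3), and the Bio point of replicate 3 stands above the other 2 in every panel.

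The set as a whole also varied together within treatments. The mean correlation of deviations from the treatment means over all 3240 pairs was 0.28, against 0.0044 over all pairs of the 26565 transcripts. A value of 0.95 was exceeded by 34 pairs. These deviations come from the same arrays that were used to choose the set. That choice may have favoured transcripts with low values on the same N array. No comparison was made with transcripts of like spread or chosen in a like way, so joint regulation was not tested. Some pairs had almost the same level on each array, as for GRMZM2G116461_T01 and GRMZM2G158175_T01, which differed by at most 0.21, and AC211891.4_FGT003 and GRMZM2G077106_T01, which differed by at most 0.32. Whether the probes of such a pair detect the same RNA was not tested. Of the 31 transcripts placed in the RefSeq gene order, 0 pairs lay within 10 genes of each other.

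Between the organic sources, mean Bio minus Aa had a median of -0.15 over the 81 transcripts, against 0.014 over all 26565 transcripts, and was within 0.5 in size for 56. It was below 0 for 52 of the 81 (64.2%, against 47.9% of all). The lowest values were those of GRMZM2G118821_T01 (-2.23), GRMZM2G167829_T01 (-1.70) and GRMZM2G053493_T01 (-1.09), and the highest those of YSL13 (0.62), GRMZM2G040175_T01 (0.56) and GRMZM2G380561_T01 (0.47). The difference of GRMZM2G167829_T01 from N was 1.49 in Bio and became 0.85 without Bio replicate 3, and that of GRMZM2G380561_T01 was 1.54 in Aa and became 0.93 without N replicate 2. All Aa arrays lay above all Bio arrays for 3 transcripts and all Bio arrays above all Aa arrays for 1, which is 3.70 and 1.23% against 4.50 and 5.69% of all, where the rule limited only the second. An Aa excess of 1 or more without overlap was found for 0 of the 81, against 0.211% of all. Within replicates the median of Bio minus Aa was 0.099, -0.62 and 0.077, so that only replicate 2 had a lower median in Bio.

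The replicates of the 81 were more spread than those of other transcripts. The median SD between arrays was 0.52 in Aa, 0.60 in Bio and 0.48 in N, against 0.23, 0.31 and 0.21 over all 26565 transcripts. Their median level was -1.04, -0.29 and -0.26 on the Aa arrays, -0.75, -1.14 and -0.51 on the Bio arrays and -1.93, -2.74 and -2.06 on the N arrays, whereas the median of all 26565 stayed between -0.88 and -0.84. Replicate 2 was therefore the lowest of both Bio and N. The lowest N array was replicate 2 for 55 of the 81, where it was for 37.0% of all transcripts. The lowest organic array was Bio replicate 2 for 40, for which the share over all transcripts was not computed.

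**Figure D5:**
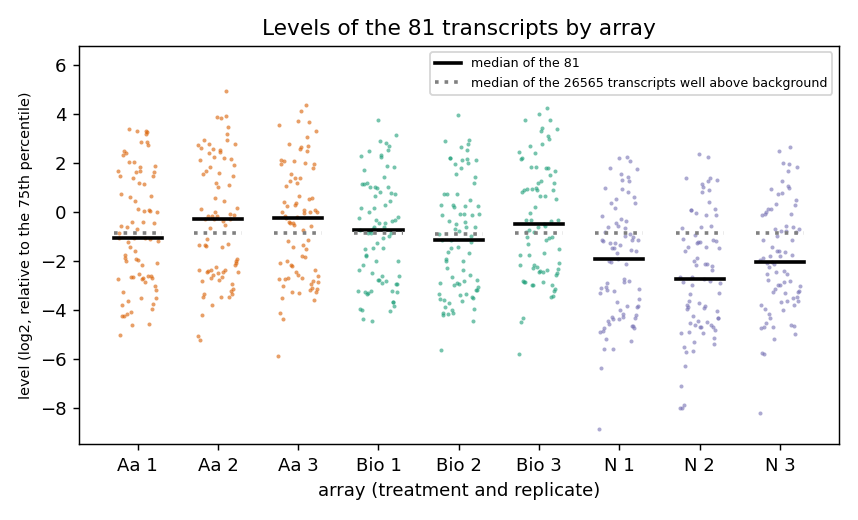
Levels of the 81 transcripts (log2, relative to the 75th percentile of the array) on the 3 Aa, 3 Bio and 3 N arrays, 1 point per transcript. Black bars are the medians of the 81, from -2.74 on N replicate 2 to -0.26 on Aa replicate 3, and dotted grey bars those of the 26565 transcripts well above background on the organic arrays, which stay between -0.88 and -0.84.

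Each slide carried 1 array of each treatment in a fixed order of positions, and the slides match the replicate numbers. The position on a slide and the treatment cannot be told apart. Within slides 1, 2 and 3 the median difference of the 81 was 1.17, 2.25 and 1.51 in Aa vs. N and 1.24, 1.53 and 1.54 in Bio vs. N, against medians between -0.037 and 0.019 over all transcripts. All 6 within-slide differences were 1 or more for 12 of the 81, and the share over all transcripts was not computed. Without N replicate 2, 50 of the 81 still met all conditions, and the median Bio difference was 1.20. Without Bio replicate 3, 56 did, with a median Bio difference of 1.22.

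On the N arrays, 76 of the 81 were well above background on all 3, 4 on 2 and 1, the carboxypeptidase, on none, so that for most the difference was measured on both sides. At least 1 spot was marked in 19 of the 81, and with marked spots left out 68 still met the conditions. The 13 that did not included ATHB-4, lox12, TPS17, the methyltransferase GRMZM2G033952_T01, the receptor kinase GRMZM2G172429_T01, GRMZM2G037615_T01, GRMZM2G043027_T01, GRMZM2G097340_T01 and GRMZM2G053493_T01. With the normexp correction in place of that of the scanner software, 87 transcripts met the conditions, of which only 15 were among the 81. The 66 lost included the carboxypeptidase, GRMZM2G118821_T01, Dwarf plant3, YSL13, oligopeptide transporter 1, the plasma membrane ATPase and all 9 transcription factors. Among those kept were RCP1, RCP2, TPS17 and the carotenoid cleavage dioxygenase. Both means stayed above N for all 81 relative to the median of all transcripts. The correction moved that median by -0.48 in Aa vs. N and -0.34 in Bio vs. N. This correction used median spot signals with an added offset of 50.

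The probes of GRMZM2G037615_T01 and GRMZM2G152016_T01, both uncharacterized, were with that of RCP1 the brightest of the 81. The first lay at 3.33, 3.90 and 3.73 in Aa, 3.78, 3.95 and 4.01 in Bio and 2.21, 2.36 and 2.49 in N, with within-slide differences of 1.12 to 1.59. Of its spots, 1 in Aa and 2 in N were marked. The second differed by 1.26 in Aa and 1.102 in Bio, and by 0.94 and 0.78 without N replicate 2.

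Just inside the limit of 1 were AC187843.3_FGT006 (1.16 in Aa, 1.01 in Bio), bHLH115 (1.01 and 1.04) and GRMZM2G040175_T01 (1.01 and 1.57). For GRMZM2G040175_T01 the Aa difference was 0.52 without Aa replicate 1 and the Bio difference 0.81 without Bio replicate 2. Just outside were GRMZM2G149204_T01 (0.9993 and 1.42), GRMZM2G309316_T01 (1.24 and 0.99) and GRMZM2G123450_T01, a leucine-rich repeat receptor kinase (1.07 and 0.98). With a limit of 0.8 there were 132 transcripts and with 1.5 there were 25, in place of 84.

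The gene groups with no transcript among the 81 were read for the same conditions. For nitrogen assimilation, 0 of 9 transcripts well above background met them in either comparison, with medians of -0.24 in Aa vs. N and -0.11 in Bio vs. N, which turned to 0.17 and 0.086 under the normexp correction. For nitrate transporters, 1 of 2 met them in Aa and 0 in Bio, and the transcript concerned, nrt2.2 (GRMZM2G010251_T01) of high-affinity nitrate uptake, differed by 3.23 in Aa and 2.07 in Bio with overlap of the Bio and N arrays. For phosphate starvation, 0 of 4 met them, and 1 lay below N by 1 or more without overlap in Aa.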

How the data were processed

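The scanner intensity of each spot was deposited by the authors as a background-subtracted and detrended signal from Agilent Feature Extraction 10.5.1.1, per the file headers not scaled between arrays. The authors also deposited these intensities multiplied by 1 factor per array, which were used as an alternative. The array named its transcripts by maize B73 identifiers, 1 probe for each of 39372. Levels are log2 intensities minus the log2 75th percentile of the array, which lay between 617.1 and 962.1. All spots were kept for the levels, and marked spots were left out of the limma 3.58.1 fit (R 4.3.3; lmFit and eBayes without trend on all 9 arrays). The precision is limited by 3 arrays per treatment.

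The 81 transcripts and the gene lists were chosen with earlier results of these data known. The lists use words of the study's annotation and symbol patterns set after the gene table was seen. Named are the 10 largest by the smaller difference, all in a list or in the paper's text, 3 at each end of Bio minus Aa, the 3 brightest, and 3 on each side of the limit of 1. A promoter or protein comparison was not made. The steps were tested on simulated data, and the alternatives are given in the closing section.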

Additional observations from a re-analysis of the deposited data

How the results depend on the processing

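The 84 transcripts that met the conditions, including the 3 left out by identifier, became 132 with a minimum difference of 0.8 and 25 with 1.5, of which 23 were among the 81. When differences were taken within replicate numbers (replicate block), 214 transcripts met them, all 81 included. Deviations from the treatment means of same-numbered arrays correlated at 0.0087 to 0.34, and each of the 9 arrays correlated best with an array of its own number, with which it shared a slide. Leaving out each array in turn gave 59 to 326 transcripts and kept 50 to 79 of the 81, the lowest without N replicate 2. The median differences were then 1.32 to 1.71 in Aa vs. N and 1.20 to 1.57 in Bio vs. N, lowest without N replicate 2. The normexp correction, on median spot signals with an added offset of 50, gave 87 transcripts. It kept 15 of the 81, whose median over all 81 was 0.93 in Bio vs. N. The parts of the offset and of the other changes in this loss were not tested. Limma called 0 transcripts in each comparison under all alternatives, including the replicate block and an adjusted p of at most 0.05. Quantile normalization kept 75, median centring 77, the percentile over probes well above background 74 and the authors' scaled intensities all 81. Probes near background limit the size of the N difference for 5 of the 81.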
